A study of Mus musculus with 47 samples.

Results

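The matrix metalloproteinases Mmp2, Mmp3, Mmp9, Mmp10, Mmp12, Mmp13 and Mmp14 and the tissue inhibitors Timp1, Timp2 and Timp3 were followed through lymphoma cells treated with a DNA-damaging drug. They were taken by gene symbol, as 10 of the 18194 genes measured on the arrays, and 22 probe sets carried these symbols. The brightest probe set of each gene gave its level, and the other 12 served as a check. Values are RMA levels on a log2 scale, so a difference of 1 is a doubling of signal.

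RNA was measured on 47 Affymetrix arrays of primary B cell lymphoma cells from Eµ-myc mice, in which an immunoglobulin enhancer drives the Myc oncogene in the B lineage. All cells carried a Bcl2 retrovirus, which blocks apoptosis, had been selected with puromycin for 48 h, and grew on NIH 3T3 mouse fibroblasts irradiated with 20 Gy. The labels give 14 lymphomas with intact Suv39h1 (WT), a methyltransferase of silenced chromatin, and 5 without it (Suv39h1-). Each gave 1 array of untreated (native) cells and 1 of cells kept in 0.05 µg/ml Adriamycin (ADR, doxorubicin) for 5 days. A further 3 cultures, Suv39h1- plus Suv39h1ER, carried a Suv39h1 fused to an estrogen receptor domain that responds to 4-hydroxytamoxifen (4OHT), and were measured native, with ADR, and with ADR and 4OHT. The labels call 2 of the 7 groups senescent, namely WT with ADR and Suv39h1ER with both agents, and the rest non-senescent. Mouse age and sex and the dose of 4OHT are not given in the sources used here, and the expression of Suv39h1 itself was not analysed here.

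Matrix metalloproteinases are zinc-dependent proteases that cut collagens and other matrix proteins, and most are secreted as inactive precursors. TIMPs bind their active sites and block them, so the balance of both sets how much matrix is degraded. TIMP2 has a second role: together with membrane-bound MMP14 it brings the MMP2 precursor to the cell surface, where MMP14 activates it. Several of these proteases, such as the collagenase MMP13 and the stromelysins MMP3 and MMP10, belong to the secretory programme of senescent cells. The proteases also differ in their usual source, since MMP12 is the macrophage elastase, MMP9 is abundant in neutrophils and macrophages, and MMP2, MMP14 and TIMP1 to TIMP3 are typical products of fibroblasts.

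Mmp13, Mmp12, Mmp3 and Mmp10 stand in this order in 1 cluster on chromosome 9, with Mmp1b between Mmp12 and Mmp3 and Mmp1a between Mmp3 and Mmp10. Because these neighbours responded differently to ADR, the 100 bases before their start sites are shown, in RefSeq's GRCm38.p6, on the plus strand. The windows of Timp1 (plus strand) and Timp2 (minus strand) follow for comparison, since both inhibitors rose with ADR. Capitals mark the letters TGANTCA, the AP-1 consensus read from either strand, and TATAAA, the TATA box.
Mmp13 at chr9:7272414-7272513: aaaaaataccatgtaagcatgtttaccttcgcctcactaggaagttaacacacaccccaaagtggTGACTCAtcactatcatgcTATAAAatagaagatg
Mmp12, first start, at chr9:7344297-7344396: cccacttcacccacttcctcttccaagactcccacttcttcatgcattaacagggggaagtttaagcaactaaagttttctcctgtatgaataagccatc
Mmp12, second start, at chr9:7347274-7347373: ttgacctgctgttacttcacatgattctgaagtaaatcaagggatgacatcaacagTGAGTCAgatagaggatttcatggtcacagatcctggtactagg
Mmp3 at chr9:7445722-7445821: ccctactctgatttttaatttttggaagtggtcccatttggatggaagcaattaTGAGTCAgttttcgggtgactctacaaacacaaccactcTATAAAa
Mmp10 at chr9:7502242-7502341: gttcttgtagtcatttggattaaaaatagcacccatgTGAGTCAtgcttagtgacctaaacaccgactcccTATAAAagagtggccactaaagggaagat
Timp1 at chrX:20870066-20870165: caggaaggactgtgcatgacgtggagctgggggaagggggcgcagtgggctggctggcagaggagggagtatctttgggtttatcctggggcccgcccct
Timp2 at chr11:118355412-118355511: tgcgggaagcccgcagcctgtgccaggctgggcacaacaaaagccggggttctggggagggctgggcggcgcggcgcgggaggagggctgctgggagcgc

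RefSeq windows were matched for 8 of the 10 genes, with 9 starts. TGANTCA occurred in the 100 bases before a start of all 4 genes of the cluster, 35 bases before the start of Mmp13, 44 before the second start of Mmp12, 46 before Mmp3 and 63 before Mmp10 (counted from its first base). Of all 32851 RefSeq starts, 2.73% had it in a window of this length and 6.75% within 250 bases. It was not in the 250 bases before Timp1, Timp2, Timp3 or Mmp14. TATAAA stood in the 100-base windows of Mmp13, Mmp3 and Mmp10 and in 5.56% of all starts. Also searched were 3 further patterns, on both strands of the 250 bases: AGGAAG (an Ets core; 29.5% of all starts), an NF-kB-type pattern (GGG, any 5 bases, CC; 45.8%) and TTGCNNAA (a C/EBP-type pattern; 9.56%). Timp1 held 2 matches of AGGAAG and 4 of the NF-kB-type pattern. The latter began 24, 13, 12 and 11 bases before the start, and those at 13, 12 and 11 overlapped each other. Mmp13 held 2 of AGGAAG, and the first start of Mmp12, Mmp3, Timp3 and Mmp14 held 1 each. The NF-kB-type pattern had 1 match before the first start of Mmp12 and 2 before Timp3. TTGCNNAA stood 39 bases before the first start of Mmp12, 148 before Mmp3 and 241 before Mmp10, and before no other start of the members. Timp2 held none of the 5 patterns. Matches of different patterns did not overlap. All 4 genes carry the AP-1 letters, and Mmp13, Mmp3 and Mmp10 carry both marked patterns. Their mean changes with ADR in WT, described below, were 2.97 for Mmp13, 2.76 for Mmp12, 0.41 for Mmp10 and 0.18 for Mmp3. Whether the letters bear on these changes was not tested.

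The median level of an array was 4.32 to 4.43 on 46 arrays and 4.07 on the last, which held Suv39h1- lymphoma 1032 with ADR. That lymphoma also stood apart for Mmp13, as described below. Over 200 genes that mark a lymphoma, arrays of WT 2949, 5043, 5766 and 6054 correlated with each other at a median of 0.632, against -0.131 for other pairs of different WT lymphomas and 0.790 for both arrays of 1 lymphoma. The labels number these 4 as separate lymphomas, and they were counted so; if any share an origin, the stated spread and p-values are understated. Suv39h1- 7890 and 9250 correlated at 0.228, where other pairs of Suv39h1- lymphomas had -0.292. In each genotype the 200 genes were picked from these same arrays. They were those where both arrays of a lymphoma deviated together most from the group means, which raises the 0.790. The alike lymphomas were given to the calculation and not found by it, so these values describe likeness and do not test it. The lymphoma numbers 4936 and 5043 occur in Suv39h1ER cultures as well as in Suv39h1- and WT, and the labels do not say whether these are related. The mean level of 7 B cell markers, which define the labelled cell type, was 8.65 to 9.36 in native WT, 7.68 to 9.81 in WT under ADR and at least 7.10 in every other group.

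**Figure D1:**
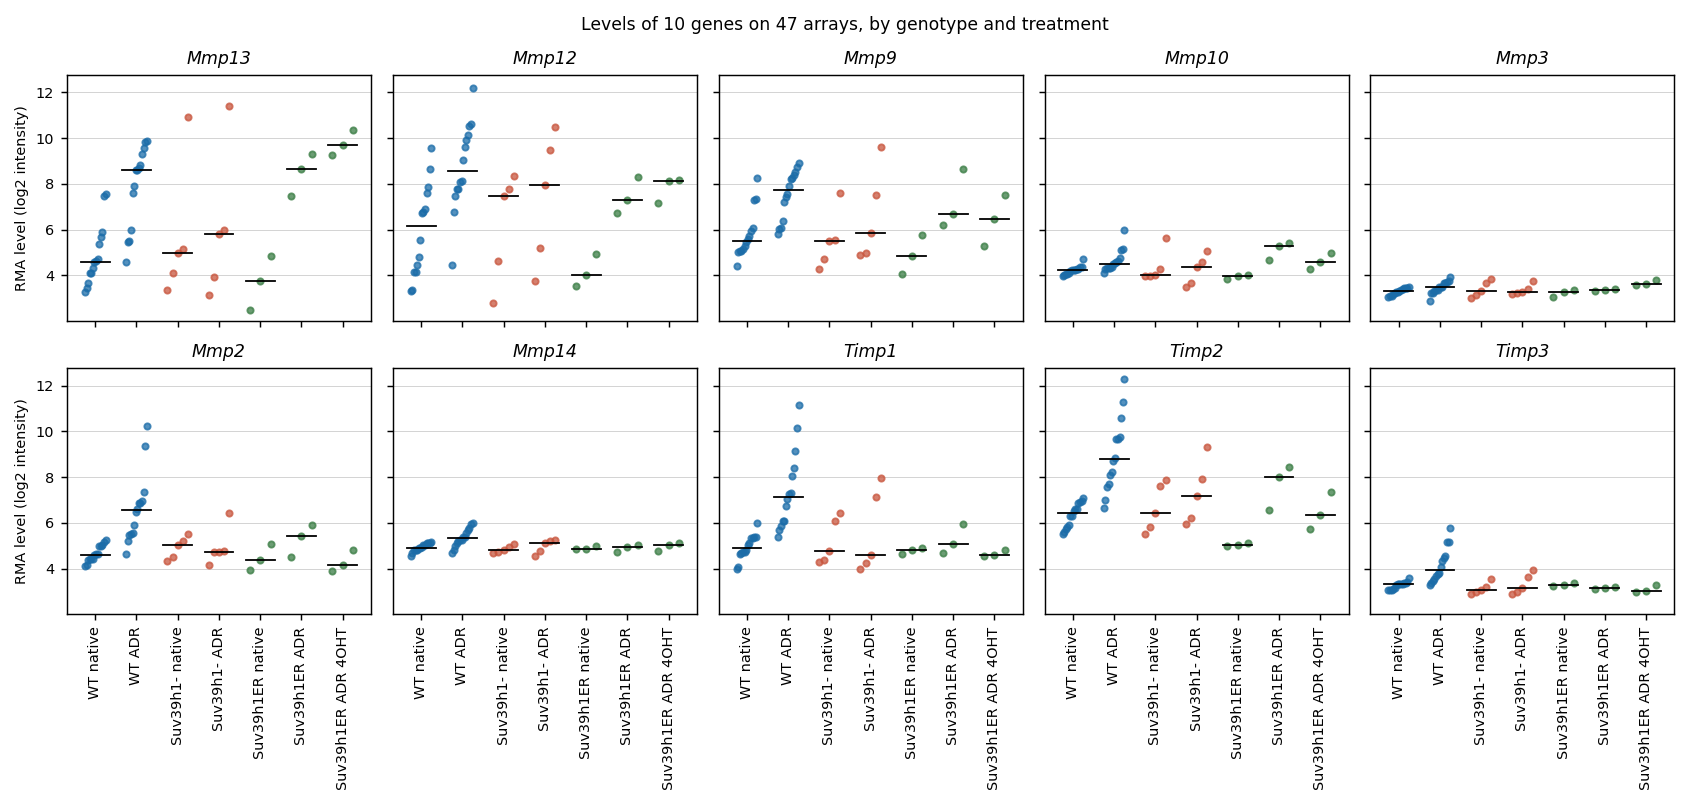
RMA level (log2 intensity, y axis) of the 10 genes in the 7 groups (x axis), with 1 point per array and a black bar at the group median; blue is WT, red Suv39h1-, green Suv39h1ER. Mmp13 under ADR lies between 4.60 and 9.88 in WT, Mmp3 stays under 4 in all groups, and 1 Suv39h1- lymphoma holds Mmp13 at 10.94 native and 11.42 under ADR.

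The first question was how the proteases and their inhibitors responded to ADR in WT lymphomas, which can enter senescence. In these 14 lymphomas, 9 of the 10 genes rose and none fell, with a median change of 1.85 over the 10 genes. Of all 18194 genes, 30.2% were called at an adjusted p under 0.05 (limma, Benjamini-Hochberg), 16.1% of all genes as higher, and the median change was 0.00. The proteases Mmp13 and Mmp12 and the inhibitors Timp2 and Timp1 had the 4 highest changes of the 10 genes, each over 5-fold on average. Mmp3 did not pass.

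Mmp13, a collagenase that opens the triple helix of fibrillar collagens, ran from 3.26 over a median of 4.59 to 7.53 in native WT cells and from 4.60 over 8.60 to 9.88 under ADR. The ranges overlapped, but each of the 14 lymphomas had more Mmp13 after ADR than before. The mean change was 2.97 (SE 0.37, adjusted p = 1.55e-06), a 7.86-fold rise. Detection calls were not used here, so a fold from a native level near the array median is not shown to start above background. It ranged from 1.12 in lymphoma 3594 to 6.62 in lymphoma 7050, which had the lowest native and the highest ADR level.

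Mmp12, which degrades elastin, had the widest native range of the 10 genes in WT, from 3.31 over 6.15 to 9.56. Under ADR it ran from 4.45 over 8.57 to 12.18. It was higher in 14 of 14 lymphomas, by 2.76 on average (SE 0.36, adjusted p = 2.23e-06). Lymphoma 7050 again had the largest change, 6.31. Lymphomas 6054 and 2949, whose native levels were 9.56 and 7.61, had the smallest changes, 0.37 and 0.47.

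The gelatinases Mmp9 and Mmp2, which cut denatured collagen and the type IV collagen of basement membranes, both rose. Mmp9 ran from 4.39 over 5.52 to 8.27 native and from 5.81 over 7.73 to 8.92 under ADR. Its change was 1.70 (SE 0.29, adjusted p = 7.01e-05, higher in 14 of 14). Mmp2 ran from 4.12 over 4.61 to 5.23 native and from 4.62 over 6.54 to 10.23 under ADR. Its change was 1.99 (SE 0.36, adjusted p = 1.33e-04, higher in 13 of 14), and lymphomas 403 and 5560 stood above the rest with 6.07 and 4.96. The gelatinases thus differed in spread: native Mmp9 already varied between lymphomas with an SD of 1.09, while native Mmp2 had an SD of 0.36 and an SD of 1.56 under ADR. The other probe set of each gene gave a change of 1.76 for Mmp9 and 1.81 for Mmp2.

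The stromelysins Mmp10 and Mmp3, which cut proteoglycans and can activate other precursors, changed least. Mmp10 ran from 3.96 over 4.22 to 4.70 native and from 4.09 over 4.51 to 5.99 under ADR, with a change of 0.41 (SE 0.14, adjusted p = 0.0254, higher in 12 of 14). Lymphoma 403 contributed a change of 2.03 and lymphoma 9584 one of 1.09. Without 403 the adjusted p was 0.0557 and without 9584 it was 0.0582. Mmp3 stood below the array median on all 47 arrays, from 3.07 to 3.49 native and from 2.89 to 3.93 under ADR, and its change was 0.18 (95% interval -0.01 to 0.36, adjusted p = 0.149). Without lymphoma 5766, where Mmp3 had -0.57, it was 0.23 (adjusted p = 0.0376). With the alike lymphomas described above averaged into 1, the calls of both stromelysins turned: Mmp10 had an adjusted p of 0.0654, and Mmp3 a change of 0.27 (adjusted p = 0.0332).

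Mmp14, the membrane-type protease that activates the MMP2 precursor, ran from 4.53 over 4.91 to 5.15 native and from 4.67 over 5.32 to 5.996 under ADR. Its change was 0.44 (SE 0.10, adjusted p = 0.00163, higher in 11 of 14). The other 2 probe sets of Mmp14 gave larger changes, 1.49 and 1.92 (adjusted p = 5.96e-05 and 2.47e-06 over all probe sets). The brightest probe set therefore gave the smallest change, and the mean of all 3 changed by 1.28.

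All 3 inhibitors rose. Timp2 ran from 5.49 over 6.41 to 7.10 native and from 6.64 over 8.78 to 12.29 under ADR, a change of 2.67 (SE 0.36, adjusted p = 3.35e-06, higher in 13 of 14). Timp1 ran from 3.96 over 4.91 to 5.999 native and from 5.38 over 7.15 to 11.15 under ADR, a change of 2.51 (SE 0.41, adjusted p = 3.63e-05, higher in 13 of 14). Timp3, the inhibitor that stays bound to the matrix, ran from 3.07 over 3.33 to 3.61 native and from 3.27 over 3.93 to 5.79 under ADR, a change of 0.90 (SE 0.16, adjusted p = 1.32e-04, higher in 13 of 14). Timp1 and Timp2 were lower after ADR only in lymphoma 1467, by -0.31 and -0.27. Of the 6 Timp2 probe sets, 5 rose by 1.16 to 3.19, and the last, at 3.24 native, had a change of -0.03 (adjusted p = 0.906). The 4 Timp3 probe sets rose by 0.74 to 1.63.

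**Figure D2:**
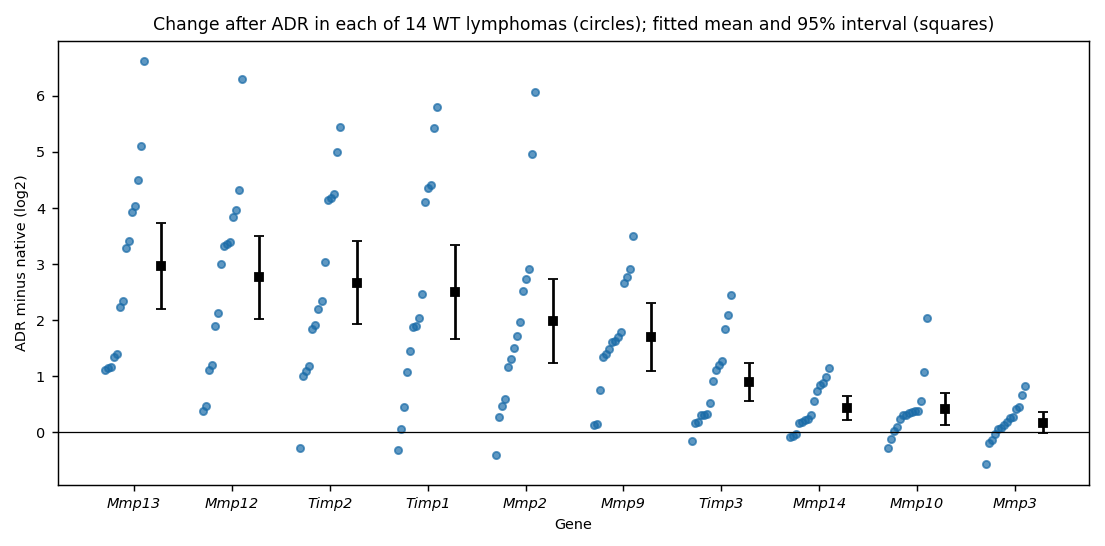
ADR minus native level (log2, y axis) of each gene (x axis, ordered by mean change) in the 14 WT lymphomas (circles), beside the fitted mean and its 95% interval (black squares and bars). Mmp13 and Mmp12 reach 6.62 and 6.31 in lymphoma 7050, and the interval of Mmp3 alone includes 0.

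Of the 11 other matrix metalloproteinases measured, 2 rose in WT and none fell, beside 16.1% of all genes called higher. Mmp8, the neutrophil collagenase, rose by 2.55 (adjusted p = 5.29e-05) and Mmp19 by 0.80 (adjusted p = 3.33e-04). Mmp11 had a change of 0.46 (adjusted p = 0.177), and the cluster neighbours Mmp1a and Mmp1b had -0.02 and 0.09. The median change of these 11 genes was 0.06. Other inhibitors did not pass: Reck, a membrane-anchored inhibitor, had a change of 0.30 (adjusted p = 0.572), Timp4 0.05 and A2m -0.08.

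Lists of genes that activate or accompany the proteases are read against the 16.1% of all genes that were called higher. In the plasminogen system and furin list, 4 of 6 measured genes rose: Plaur, the urokinase receptor, by 1.36, the protease inhibitor Serpinb2 by 2.20, the convertase Furin by 0.67 and the plasminogen activator Plat by 1.03. Of 11 ADAM and ADAMTS proteases 9 rose, led by Adam8 with 2.10 (adjusted p = 2.32e-07), then Adam15 with 0.49 and Adamts1 with 0.87. Of 14 genes for AP-1 subunits and protease inducers 10 rose, among them the cytokines Il6 (2.13) and Tnf (1.19) and the AP-1 subunit Fosl2 (1.94). Of 11 matrix substrates other than collagens 9 rose, among them fibronectin (Fn1, 3.30), biglycan (Bgn, 3.15) and nidogen (Nid1, 2.84). The other genes of these 4 lists were not called.

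Cell type markers changed to differing degrees in the same comparison. They are read against the 16.1% of all genes called higher and the 2564 of 18194 called lower. The mean level of 15 fibroblast markers ran from 3.44 to 3.98 in native WT and from 3.76 to 6.74 under ADR, and 12 of the 15 rose, led by Acta2, Cald1 and Prrx1. The mean level of 15 macrophage markers ran from 4.71 to 7.21 native and from 5.55 to 8.34 under ADR, and 10 of the 15 rose, led by Ms4a7 (2.69), Adgre1 (2.18) and Cd14 (2.15). Of 10 neutrophil markers 2 rose, Lcn2 by 2.74 and S100a8 by 2.12, while Csf3r had a change of 0.67 (adjusted p = 0.0640). Of 7 B cell markers 3 fell: Cd22 by 1.43, Cd79a by 0.72 and Ebf1 by 0.57. No T cell marker of 5 was called (Cd3d -0.05, Cd4 0.08, Cd8a 0.09). Of 6 endothelial markers 1 fell, Tie1 by 0.21, while Emcn had -0.21 and Kdr -0.10 without being called. In bulk RNA, fewer cells of a type and less RNA per cell cannot be told apart, and the part of other cells in the changes of the proteases and inhibitors was not tested beyond the relations that follow.

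The second question was how the genes related to collagen genes across the WT lymphomas. Of 12 collagen genes 11 rose with ADR, beside 16.1% of all genes, led by Col1a2 (3.09), Col1a1 (2.25) and Col5a2 (2.31). The mean change of the 12 per lymphoma ran from 0.12 in lymphoma 1467 to 4.08 in lymphoma 403. The changes of Mmp2, Timp1, Timp2, Timp3 and Mmp14 were related to this collagen change by the test, and those of Mmp13, Mmp12, Mmp9, Mmp10 and Mmp3 were not. The levels of Mmp12 under ADR were, as given below. Over 14 lymphomas the Pearson correlation with the collagen change was 0.967 for Mmp2 (Spearman 0.938; permutation adjusted p = 9.33e-04 and 0.00118). It was 0.935 for Timp1 (Spearman 0.956), 0.934 for Timp2 (0.947) and 0.937 for Timp3 (0.886), all with permutation adjusted p of at most 0.00489. The raw permutation p of Mmp2, Timp1 and Timp2 was 1e-05, the smallest that 100000 resamples can give. Of all genes, 12.9% were called by the Pearson and 12.9% by the Spearman test, and 0.187% had a stronger absolute correlation than Mmp2.

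Mmp14 had a correlation of 0.692 (Spearman 0.727; permutation adjusted p = 0.0468 and 0.0402). That call was lost in 15 of 21 alternative settings and turned in sign in 1, native levels. Among the 15 was leaving out any of 12 single lymphomas, with correlations of 0.656 to 0.781 over all single omissions. The call held for the mean of all 3 Mmp14 probe sets, of which the brightest, used here, had the smallest ADR change. Mmp13 had 0.285 (Spearman 0.174; permutation adjusted p = 0.576 and 0.767), Mmp12 0.281 (0.446; 0.585 and 0.313) and Mmp9 0.364 (0.262; 0.440 and 0.619). Mmp10 had 0.457 (Spearman 0.121; 0.285 and 0.849) and Mmp3 0.450 (0.596; 0.302 and 0.127). A p that misses the threshold does not show that these 5 genes and the collagens are unrelated.

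Levels in place of changes, set against the collagen level of the same arrays, were added after the data were seen. Over the 14 WT arrays with ADR, Mmp12 was related to the collagens, with a Pearson correlation of 0.807 (Spearman 0.802; permutation adjusted p = 0.00586 and 0.0208), and at 0.731 without lymphomas 403 and 5560. Mmp14 had 0.847 (Spearman 0.851; permutation adjusted p = 0.00288 and 0.00903), and Mmp2, Timp1, Timp2 and Timp3 had 0.942 to 0.977 and were called. Mmp9 had 0.550 (permutation adjusted p = 0.146), Mmp10 0.481 (0.225), Mmp13 0.392 (0.353) and Mmp3 0.317 (0.477). Thus 6 of the 10 genes were called on levels with ADR, beside 16.5% of all genes by Pearson and 8.15% by Spearman. Over the 14 native arrays none was called, beside 0.0605% and 0.0879% of all genes, and Mmp2 (0.832, permutation adjusted p = 0.109) and Timp1 (0.665, 0.267) were highest. Mmp12 thus went with the collagens in its level with ADR, and its change was not called.

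Lymphomas 403 and 5560 had the highest collagen changes, 4.08 and 3.96, where the other 12 reached 2.28. Without both, the correlation stayed at 0.909 for Mmp2, 0.920 for Timp1, 0.944 for Timp2, 0.870 for Timp3 and 0.651 for Mmp14, while it was -0.06 for Mmp13, 0.378 for Mmp12, 0.200 for Mmp9, -0.325 for Mmp10 and 0.184 for Mmp3. Leaving out a single lymphoma was enough to take Mmp10 to -0.036, and lymphoma 403 had its highest change, 2.03. For Mmp13 the correlation was at least 0.105 over single omissions and lost its positive value without both 403 and 5560. No other pair was left out. Fitted on the 14 differences with limma, Mmp2 gained 1.34 log2 units per unit of collagen change (SE 0.09), Timp1 1.45 (SE 0.14), Timp2 1.24 (SE 0.12), Timp3 0.58 (SE 0.06) and Mmp14 0.22 (SE 0.07). These 5 slopes were called, beside 16.1% of all genes. For the mean of its 3 probe sets the Mmp14 slope was 0.61, also called. The slopes of Mmp13 (0.38, 95% interval -0.32 to 1.08), Mmp12 (0.36, -0.31 to 1.04) and Mmp9 (0.28, -0.11 to 0.68) were not. Single lymphomas moved these 3: without 403 the slope was 0.16 for Mmp13 and 0.08 for Mmp9, without 5560 it was 0.67 for Mmp12 and 0.46 for Mmp9, and without 403 or without 2949 it was 0.24 for Mmp12, none called.

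The same fit gives the change expected at a collagen change of 0. There Mmp13 was at 2.39 (adjusted p = 0.0227), Mmp12 at 2.21 (adjusted p = 0.0285), Mmp9 at 1.28 (adjusted p = 0.0304) and Timp2 at 0.79 (adjusted p = 0.0444), and these 4 were called, beside 13% of all genes. Mmp2 was at -0.05, Timp1 at 0.32, Timp3 at 0.01, Mmp14 at 0.10, Mmp10 at 0.11 and Mmp3 at -0.01, none of them called. In single lymphomas the order of the genes varied. In lymphoma 1467, where the collagen change was lowest, Mmp13 changed by 3.28, Mmp9 by 2.77 and Mmp12 by 1.20, while Mmp2, Timp1 and Timp2 had -0.41, -0.31 and -0.27. In lymphoma 2949, with the next lowest collagen change, 0.28, Mmp9 changed by 0.15 and Mmp12 by 0.47, less than Timp2 with 1.19 and Mmp2 with 0.60, while Mmp13 changed by 1.34. In lymphoma 3594 Timp1 changed by 4.36 and Timp2 by 4.15, and Mmp13 by 1.12. In lymphoma 403 all of these were high: Mmp2 changed by 6.07, Timp1 by 5.81, Mmp13 by 5.11 and Mmp12 by 4.31.

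The collagen change was nearly the same measure as the change of the fibroblast markers (r = 0.990 over 14 lymphomas), a list without collagens, Mmps or Timps. Against the fibroblast list Mmp2 had 0.977, Timp1 0.965, Timp2 0.948, Timp3 0.898 and Mmp14 0.731, while Mmp13 had 0.251, Mmp12 0.290 and Mmp9 0.368. Against the macrophage list the 10 genes ran from -0.495 (Mmp10) to 0.256 (Mmp9), and none had a called slope on the macrophage change, beside 0.0385% of all genes (7 genes; 1161 had an unadjusted p under 0.05). With the neutrophil list, added after the data were seen, Mmp12 correlated at 0.641 and Mmp9 at 0.543, and neither slope was called (adjusted p = 0.169 and 0.269). These correlations share arrays and are given as descriptions. The feeder cells are fibroblasts of mouse, so their RNA and that of other cells in the cultures cannot be told apart from lymphoma RNA on these arrays.

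**Figure D3:**
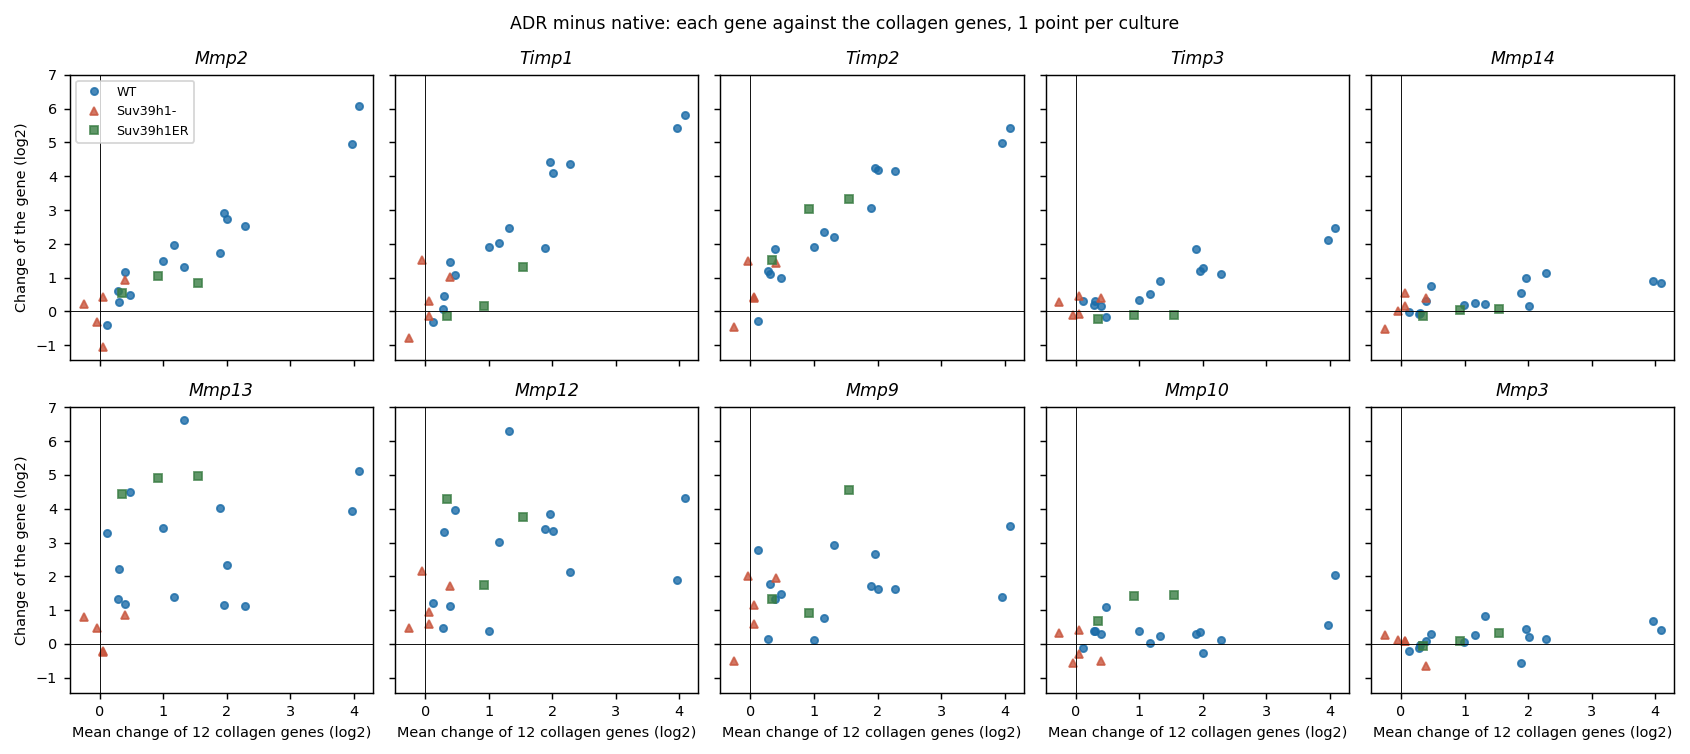
Change of each gene from native to ADR (log2, y axis) against the mean change of 12 collagen genes (log2, x axis), 1 point per culture; blue circles are WT, red triangles Suv39h1-, green squares Suv39h1ER. Mmp2, Timp1, Timp2 and Timp3 climb with the collagen change (r from 0.934 to 0.967 in WT), and Mmp13, Mmp12 and Mmp9 are more scattered (r from 0.281 to 0.364).

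Among themselves, the WT changes of Mmp2, Timp1, Timp2 and Timp3 correlated at 0.825 to 0.973, the highest for Timp1 with Timp2. Mmp9 and Mmp12 correlated at 0.662 and Mmp12 and Mmp13 at 0.568. Mmp13 had 0.048 with Mmp14 and 0.055 with Timp2. Over all 47 arrays, the genes outside the 10 whose levels were most like those of Mmp2 were Serpinh1 (r = 0.966), a chaperone of collagen, Epb41l3 and the laminin chain Lamb1. Timp1 was most like Fbln2 (0.954), Timp2 like Cpe (0.962) and Pcolce (0.957), an enhancer of procollagen cleavage, and Timp3 like Ankrd1 (0.923) and the fibroblast surface marker Thy1 (0.923). Mmp9 was most like the chemokine receptor Ccr1 (0.883) and S100a8 (0.877), Mmp12 like the chemokine Ccl6 (0.861), and Adam8 also ranked in its top 3 (0.840). Mmp13 was most like Prmt2 (0.829) and Hcar2 (0.803), and Hcar2 also followed for Mmp10 (0.686), after the cytokines Csf2 (0.712) and Csf3 (0.709). The closest gene to Mmp14 was Masp1 (0.841) and to Mmp3 Rnf181 (0.596). These values include the differences between groups and describe the arrays.

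The third question was whether Suv39h1- lymphomas responded. None of the 10 genes was called after ADR, beside 0.011% of all genes, which were 2 genes by limma (1885 had an unadjusted p under 0.05). The median change of the 10 genes was 0.27 and that of all genes -0.04. In lymphomas 5783, 7890, 9250, 1032 and 4936, in this order, native Mmp13 was at 4.98, 5.17, 4.12, 10.94 and 3.35, and with ADR at 5.83, 5.97, 3.92, 11.42 and 3.13. Lymphoma 1032 thus had far more Mmp13 than the others, and more than any WT array, before treatment. Among all native arrays, its own also had the lowest mean of the B cell markers, 7.61, and the highest of the neutrophil markers, 4.96. Whether these bear on its Mmp13 level was not tested. The change of Mmp13 over the 5 lymphomas was 0.34 (95% interval -0.95 to 1.63, adjusted p = 0.903). Mmp12 in the same order was at 7.75, 7.47, 4.61, 8.33 and 2.80 native, and at 9.48, 7.93, 5.19, 10.48 and 3.76 with ADR. It was higher with ADR in 5 of 5 lymphomas, by 1.18 (95% interval -0.06 to 2.41, adjusted p = 0.503).

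Mmp9 was at 5.54, 5.48, 4.27, 7.59 and 4.70 native and at 7.50, 4.97, 4.87, 9.59 and 5.84 with ADR, a change of 1.04 (95% interval 0.03 to 2.05, adjusted p = 0.465). Mmp2 was at 5.50, 4.50, 4.33, 5.02 and 5.19 native and at 6.42, 4.72, 4.76, 4.71 and 4.13 with ADR, a change of 0.04 (95% interval -1.20 to 1.29). Timp1 was at 6.10, 4.75, 4.29, 6.44 and 4.38 native and at 7.13, 3.97, 4.60, 7.95 and 4.24 with ADR. Lymphomas 5783 and 1032 were the higher ones for Mmp9, Mmp12 and Timp1, and groups overlapped for each gene. Timp2 changed by 0.66 (95% interval -0.57 to 1.89) and Timp3, Mmp14, Mmp3 and Mmp10 by 0.19, 0.12, -0.02 and -0.13, none called. The collagen list had a mean change of 0.04 ± 0.24 (SD, n = 5), and the fibroblast and macrophage lists 0.13 and 0.12.

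The difference between the WT and Suv39h1- responses was above 0 for 10 of 10 genes, beside 58.1% of all genes. This difference was called for none of the 10, beside 0.341% of all genes (62 genes). For Mmp13 it was 2.63 (95% interval 1.14 to 4.13, adjusted p = 0.0828), with adjusted p from 0.0542 to 0.358 over the alternatives. For Timp1 it was 2.12 (0.48 to 3.76), for Timp2 2.01 (0.58 to 3.44) and for Mmp2 1.94 (0.49 to 3.40), with adjusted p of 0.162, 0.134 and 0.149. For Mmp12 it was 1.59 (0.15 to 3.02) and for Mmp9 0.66 (-0.51 to 1.84), which was 0.28 without Suv39h1- lymphoma 7890. In native cells none of the 10 genes was called between WT and Suv39h1-, beside 1.09% of all genes. Native Mmp13 was at 4.91 ± 1.35 (SD, n = 14) in WT and 5.71 ± 3.01 (SD, n = 5) in Suv39h1- lymphomas.

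Under ADR, WT was above Suv39h1- for 10 of 10 genes, beside 56.4% of all genes. None of the 10 was called, beside 12.6% of all genes. The difference was 1.83 for Mmp13 (adjusted p = 0.267), 1.87 for Timp1 (0.155), 1.69 for Mmp2 (0.111), 1.69 for Timp2 (0.150) and 0.86 for Timp3 (0.109). Without Suv39h1- lymphoma 1032 it was called for Mmp13 at 3.17 (adjusted p = 0.0221) and for Mmp9 at 1.73 (adjusted p = 0.0461). Mmp14 was called as the mean of its 3 probe sets, at 1.37 (adjusted p = 0.0298), where the brightest gave 0.39. Of the listed genes, 2 of 12 collagens were higher in WT under ADR, Col1a1 (2.41) and Col6a1 (1.91). Among inducers, Tgfb1 was higher in WT by 1.64 native and 1.98 under ADR, and Bsg, a surface protein that induces metalloproteinases, by 1.28 and 1.63. Tnf (1.53), Junb (1.15) and Jund (0.50) were higher in WT under ADR. Of cell markers, 1 of 15 macrophage genes (Ms4a7, 2.82), 2 of 10 neutrophil genes (Lcn2, 3.47, and Cxcr2, 0.25) and 1 of 6 endothelial genes (Pecam1, 1.36) were higher in WT under ADR. None of the 15 fibroblast genes was called, beside 12.6% of all genes. In native WT cells 1 of 7 B cell genes (Cd79a, 2.01) and 1 of 6 endothelial genes (Pecam1, 1.18) were higher, beside 1.09% of all genes. The responses of Ms4a7 and Lcn2 also differed between genotypes, by 2.64 and 3.08 (adjusted p = 0.0460 for both).

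The fourth question was what ADR and 4OHT did in the 3 Suv39h1ER cultures. Mmp13 rose with ADR alone and with ADR and 4OHT, and Mmp12 rose with ADR and 4OHT. In cultures SuvER-4146, SuvER-4936 and SuvER-5043, in this order, Mmp13 was at 3.74, 2.50 and 4.85 native, at 8.65, 7.47 and 9.29 with ADR, and at 9.68, 10.36 and 9.26 with ADR and 4OHT. Every treated array was above every native one, as for 9.68% of all genes with ADR and 10.6% with ADR and 4OHT. The change was 4.77 with ADR alone (SE 0.80, adjusted p = 0.00877) in cells labelled non-senescent, where 0.126% of all genes were called (23 genes). It was 6.07 with ADR and 4OHT (SE 0.80, adjusted p = 2.97e-04), where 2.95% of all genes were called. Native Mmp13 lay around or below the array medians, so no fold is given against it. The call with ADR alone was lost without culture SuvER-4146 (4.70, adjusted p = 0.0521) or SuvER-4936 (4.68, adjusted p = 0.189) and without the culture as a block (4.77, adjusted p = 0.256).

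Mmp12 was at 4.95, 3.53 and 4.00 native, at 6.71, 7.28 and 8.28 with ADR, and at 7.17, 8.16 and 8.10 with ADR and 4OHT. These groups did not overlap with native either (shares of all genes above). The change with ADR and 4OHT was 3.65 (SE 0.77, adjusted p = 0.0124). It was no longer called without culture SuvER-4936 (3.16, adjusted p = 0.157), without SuvER-5043 (3.43, adjusted p = 0.0898) or without the culture as a block (adjusted p = 0.289). With ADR alone it was 3.26 (adjusted p = 0.0901). Fitted on the arrays of the groups compared alone, neither call with ADR and 4OHT held (adjusted p = 0.0874 for Mmp13 and 0.121 for Mmp12).

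Mmp9 was at 5.75, 4.07 and 4.86 native, at 6.66, 8.63 and 6.19 with ADR, and at 5.26, 7.52 and 6.44 with ADR and 4OHT. Timp2 was at 5.00, 5.13 and 5.03 native, at 8.02, 8.45 and 6.54 with ADR, and at 6.36, 7.33 and 5.72 with ADR and 4OHT. Mmp10 was at 4.01, 3.82 and 3.99 native, at 5.43, 5.27 and 4.66 with ADR, and at 4.27, 4.57 and 4.96 with ADR and 4OHT. All 3 genes were higher in every ADR culture than in any native one, as were 9.68% of all genes, and none of the 3 was called. Their changes with ADR alone were 2.27 for Mmp9 (adjusted p = 0.131), 2.62 for Timp2 (0.144) and 1.18 for Mmp10 (0.10). Without culture SuvER-4936 Mmp9 was at 1.12, and the mean of all Timp2 probe sets was at 1.10, its other 5 probe sets running from -0.07 to 2.06.

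Mmp2 was at 4.37, 5.05 and 3.93 native, at 5.42, 5.90 and 4.49 with ADR, and at 4.17, 4.79 and 3.88 with ADR and 4OHT. In each culture it was lowest with ADR and 4OHT. The collagen list in the same order was at 4.22, 4.11 and 4.13 native, at 5.14, 5.65 and 4.48 with ADR, and at 4.13, 4.59 and 4.14 with ADR and 4OHT, lowest with both agents in SuvER-4146 only. Timp1 was at 4.90, 4.63 and 4.83 native, at 5.07, 5.93 and 4.69 with ADR, and at 4.55, 4.60 and 4.80 with ADR and 4OHT. Timp3, Mmp14 and Mmp3 changed by -0.15, -0.00 and 0.12 with ADR alone and by -0.22, 0.07 and 0.43 with ADR and 4OHT, none called. The mean collagen change was 0.94 ± 0.60 (SD, n = 3) with ADR alone and 0.13 ± 0.30 with ADR and 4OHT.

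Adding 4OHT to ADR changed none of the 10 genes by the test, beside 0.143% of all genes (26 genes; 2268 had an unadjusted p under 0.05). Mmp13 was higher with 4OHT by 1.03 in culture SuvER-4146 and 2.89 in SuvER-4936, with -0.03 in SuvER-5043, a mean of 1.30 (95% interval -0.36 to 2.96, adjusted p = 0.559). Timp2 was lower in 3 of 3 cultures, with a mean of -1.20 (95% interval -2.79 to 0.39), and Mmp2 too, with -0.99 (-2.60 to 0.62). The intervals leave room for changes of over 2 log2 units in either of these genes, so the 3 cultures do not show that 4OHT had no effect.

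Both groups labelled senescent were also set against each other, in a comparison added after the data were seen. None of the 10 genes was called, beside 0.0165% of all genes, which were 3 genes by limma (1628 had an unadjusted p under 0.05). The change of Mmp13 from native was larger in Suv39h1ER cells with ADR and 4OHT than in WT with ADR, by 3.09 (95% interval 1.27 to 4.92, adjusted p = 0.303). Timp1 (-2.65, 95% interval -4.65 to -0.64), Mmp2 (-2.16, -3.93 to -0.38) and Timp3 (-1.11, -1.92 to -0.31) lay the other way, with adjusted p from 0.413 to 0.465.

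Of the listed genes in Suv39h1ER cells, Lyz2, a macrophage marker, rose by 5.38 with ADR and by 5.57 with ADR and 4OHT, and the neutrophil marker Lcn2 by 3.96 and 4.29. These were 1 of 15 macrophage and 1 of 10 neutrophil markers measured, beside 0.126% of all genes with ADR and 2.95% with ADR and 4OHT. No other marker of both lists was called. Il6 rose by 2.64 and Cd44, a surface receptor that binds matrix, by 1.32 with ADR and 4OHT. They were the 2 called of 14 genes for AP-1 subunits and inducers, whose median change was 0.34. The macrophage list as a whole ran from 4.41 to 4.95 native, from 5.51 to 6.75 with ADR and from 5.42 to 5.72 with ADR and 4OHT. The neutrophil list ran from 3.36 to 3.98, 4.08 to 4.66 and 4.09 to 4.48 in the same order. Their part in the rise of Mmp13 and Mmp12 was not tested. The fibroblast list stood at 3.51 to 3.59 native, at 3.77 to 4.25 with ADR and at 3.69 to 3.75 with ADR and 4OHT.

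**Figure D4:**
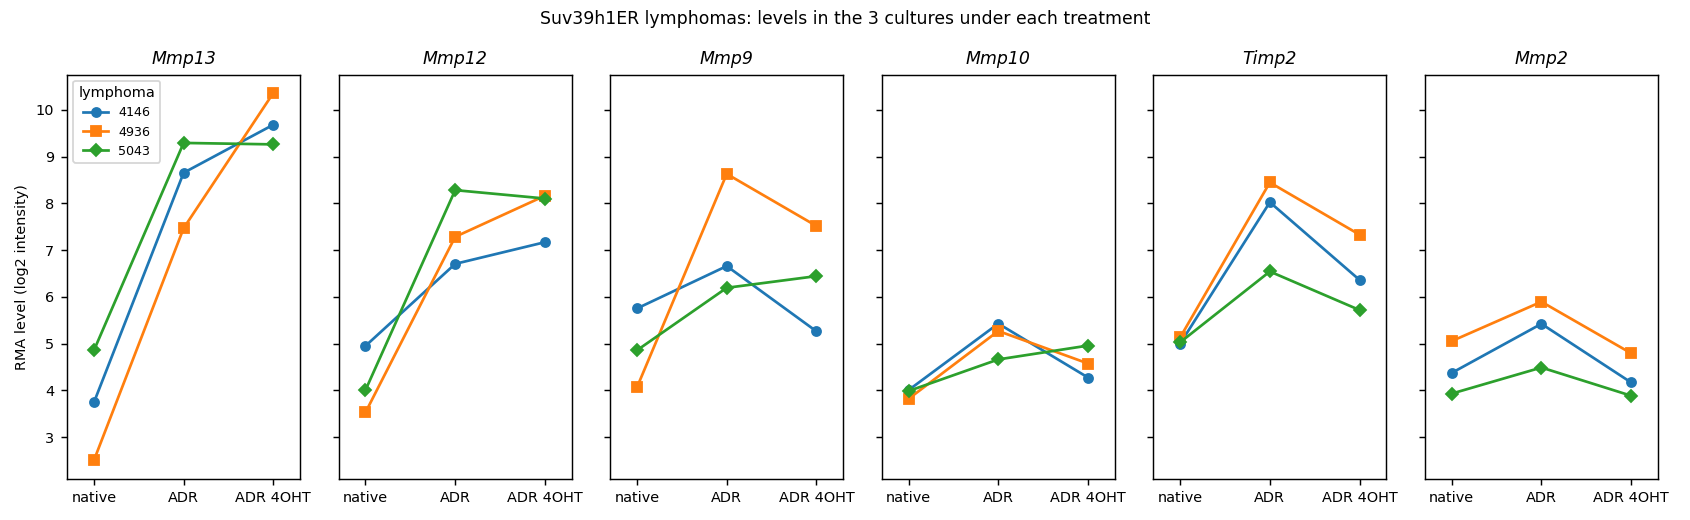
RMA level (log2 intensity, y axis) of 6 genes in the 3 Suv39h1ER cultures (1 line each) under native, ADR and ADR 4OHT conditions (x axis). Mmp13 lies at 2.50 to 4.85 native and at 7.47 to 10.36 in treated cultures, while Mmp2 with ADR and 4OHT lies at 3.88 to 4.79, near its native 3.93 to 5.05.

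Across the 7 groups, the mean level of Mmp13 ran from 3.70 ± 1.18 in native Suv39h1ER (SD, n = 3) over 4.91 in native WT, 5.71 and 6.05 in native and treated Suv39h1-, 7.88 in WT with ADR and 8.47 in Suv39h1ER with ADR to 9.77 ± 0.56 in Suv39h1ER with ADR and 4OHT (SD, n = 3). Of these 6 steps, the last alone, 1.30, exceeded the larger SD of its neighbours, 0.93. Mmp12 ran from 4.16 in native Suv39h1ER to 8.75 in WT with ADR, and no step between neighbours exceeded the larger SD. WT with ADR was also highest for Mmp2, Mmp9, Mmp14, Timp1, Timp2 and Timp3. The step below it exceeded the larger SD for Timp1 (1.87 from treated Suv39h1-) and Timp3 (0.86 from treated Suv39h1-), not for the other 5. Timp2 was lowest in native Suv39h1ER, at 5.05 ± 0.07 (SD, n = 3), 1.28 below native WT. Mmp10 was highest in Suv39h1ER with ADR (5.12) and Mmp3 in Suv39h1ER with ADR and 4OHT (3.65), where neighbours differed by less than the larger SD.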

How the data were processed

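Total RNA (3 µg) was labelled and hybridised to Affymetrix mouse genome arrays. The deposited values are log2 levels per probe set, which the authors made with RMA (oligo package, R 3.5.0), per the submitters' processing notes. No source used here names a batch correction. Of 45101 probe sets, 34958 carry 1 gene symbol, 932 several and 9211 are unnamed here. Each of 18194 genes was represented by its brightest probe set (mean of 47 arrays).

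Differences were tested with limma 3.58.1 (lmFit, eBayes) in R 4.3.3, two-sided, with Benjamini-Hochberg adjustment over all genes and calls at an adjusted p under 0.05. Treatments were fitted on 47 arrays with the 22 cultures as blocks, and genotypes on 19 arrays without. The series text describes matched pairs. The 2 arrays of a culture deviated together (correlation above 0.1) in 10 of 14 WT, 5 of 5 Suv39h1- and 2 of 9 Suv39h1ER pairs. Replicates are separate lymphomas by their labels. Relations over 14 lymphomas used 100000 permutations (Python 3.11.15, scipy 1.17.1, numpy 2.4.6), adjusted over all genes. The fits were tested on simulated data.

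The members and the 13 gene lists (126 of 141 genes measured) were chosen with earlier results of these data known. All 10 genes are named in every comparison. Of each list, up to 3 genes with the smallest p in WT are named, and genes called in another comparison where 5 or fewer were. For each member the 3 genes most alike over 47 arrays were found. The number of arrays limits the precision. Neither detection calls nor scan dates entered the tests. The comparison of both groups labelled senescent, the neutrophil slope and the relations of levels were added after seeing the data. Alternatives changed the probe set, low-level filter, normalization, variance prior, samples and block.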

Additional observations from a re-analysis of the deposited data

Results flagged for a closer look

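In the 5 Suv39h1- lymphomas, 30 sets of values (native, ADR and change of each gene) were searched for a value far from the others by Dixon's test, which flags about 1 in 20 sets by chance. It flagged 4. Lymphoma 1032 stood apart with a native Mmp13 level of 10.94 (the next at 5.17, the lowest at 3.35) and a native Mmp10 level of 5.64 (the next at 4.26). Lymphoma 5783 stood apart with an Mmp2 level of 6.42 under ADR (the next at 4.76) and with an Mmp3 change of -0.65, where the others lay between 0.08 and 0.26. The array of 1032 under ADR also had the lowest median of the 47, at 4.07, though its native array, which carries both flags, lay within the other arrays' range. That native array had the lowest mean of the B cell markers and the highest of the neutrophil markers among native arrays.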

How the results depend on the processing

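The comparisons were recomputed with other probe set, filter, normalization, variance and sample choices, and without each lymphoma. For the 10 genes, other Mmps and Timp4, 2131 of 2186 values were called in both settings or in neither, 45 lost and 7 gained a call, and 3 reversed. Many of the 2131 were uncalled in both settings, and only values called in the main setting could lose a call. The 2131 are thus not a share of calls that held. A change of sign counted as reversed only where the value was called in at least 1 of both settings. Uncalled values that changed sign are thus among the 2131, such as the change of Mmp2 in Suv39h1- lymphomas, which ran from -0.18 to 0.35. Where no value shows a cause of a shift, the cause was not tested. At a collagen change of 0, fitted changes reversed for Mmp2 (-0.053), Mmp11 (-0.78), Reck (-1.19), Adamts1 (-0.12), Prrx1 (-0.000709) and Cd79a (0.035), and 2359 genes were called for WT in place of 5489. Genes called moved past 1.5 times as follows. For Suv39h1- ADR against native (2), the filter at a mean level of 5 gave 0, a trended robust prior 12, the compared arrays alone 0, no replicate block 11 and alike lymphomas averaged 1. For the WT minus Suv39h1- response (62), the filter gave 126, quantile normalization 95, median centring 152, the trended prior 28, the compared arrays 40, no block 13 and averaging 0. For Suv39h1ER ADR 4OHT against ADR (26), they were 42 (filter), 7 (trended prior), 0 (compared arrays, fewer residual degrees of freedom), 16 (no block) and 11 (averaging). For Suv39h1ER against native, the compared arrays gave 1 with ADR (23) and 0 with ADR 4OHT (537), and no block 2 and 267. The added comparison (3) gave 0 with the filter, 1 without the block and 0 with averaging. The ADR comparison of genotypes (2293) gave 939 with averaging. Single omissions gave 4920 to 5694 genes for WT, 0 to 12 for Suv39h1-, 0 to 258 for the difference of responses, 1 to 56, 4 to 109 and 90 to 326 for the Suv39h1ER comparisons in the order named, 0 to 6 for the added one, 138 to 316 native and 1227 to 3389 under ADR between genotypes. Slopes on the collagen change were called for 2925 genes, 1338 without 403 and 5560, and 1935 to 3041 over single omissions. The correlation of Mmp14 was -0.0853 on native levels. Correlations were called for 2340 genes, 11 on native levels, 1497 with averaging, 575 without both lymphomas, and 1320 to 2482 over single omissions. The Mmp14 slope lost its call in 8 of 19 alternatives, and the Mmp10 rise in 6 of 23. With 3 Suv39h1ER cultures and 5 Suv39h1- lymphomas, intervals of several log2 units remain. Levels of Mmp3, Timp3, Mmp10 and native Suv39h1ER Mmp13 mostly lie around or below the array medians, where signal over background limits what a change can show.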
